A study of Mus musculus with 2 samples.

Results

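The endoplasmic reticulum (ER) stress and folding genes are 34 genes that sense unfolded protein in the ER, answer it, or fold, import and dispose of secretory proteins. They were chosen by gene symbol from a list of 34 names and linked by gene identifier to the gene tables, so they are 34 of 55536 Ensembl genes. All 34 were found. Ddit3 had 2 identifiers, and the one with the higher level was taken, since the other had 0 counts in both libraries.

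The samples are primary mouse neutrophils taken from spleen, whose total RNA was sequenced as 2 libraries of a single group. The cells came from virgin adult B6CASTF1/J males of 65 days, which are F1 hybrids of a C57BL/6 female and a CAST Eij male. No treatment or knockout is named, so the study makes no comparison of conditions for these genes, and what can be compared is gene with gene, transcript with transcript and library with library. The input was 300 ng of RNA a library, to which ERCC spike-ins were added. The labels call the libraries biological replicates 1 and 2, from separate biosamples, yet both carry 1 donor identifier, so their spread may be partly technical.

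Cells fold their secreted and membrane proteins in the ER. Unfolded protein there is sensed by 3 membrane proteins, Ern1 (IRE1), Eif2ak3 (PERK) and Atf6, which together start the unfolded protein response. Ern1 splices the Xbp1 messenger RNA, Eif2ak3 slows translation and thereby favours Atf4, and Atf6 is cut to release a transcription factor. The targets are chaperones, disulphide isomerases and the machinery that moves misfolded proteins back to the cytosol for degradation. In neutrophils the ER is best known for the granule proteins made during maturation in the marrow, and Xbp1 is known to be needed less in neutrophils than in eosinophils or plasma cells.

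Luminal proteins of the ER carry at their carboxyl end a retrieval signal of the KDEL type or a variant of it, which returns escaped proteins from the Golgi to the ER. The ends of their coding sequences are shown because they hold this signal, in one form or another, in the 9 luminal members; Canx, a membrane protein, is not among them. Each line gives the last coding bases, 5′ to 3′ on the coding strand, of the transcript numbered 201 in GENCODE M21 (mm10), with the last 4 codons in capitals followed by the stop codon.
Calr: cctggccaagccAAGGATGAGCTGtag
P4hb: cagaaagctgtgAAGGATGAACTGtag
Pdia6: gatgacctggagAAGGATGAGTTGtga
Pdia4: aggagcaggaccAAGGAAGAGCTTtaa
Sdf2l1: ctctccacgggtCACGATGAACTCtga
Hyou1: cggccttcaaagAACGATGAACTAtaa
Pdia3: aagaagaaggcaCAAGAGGACCTCtaa
Creld2: cagccaccctccCGTGAGGATTTGtga
Manf: gcagccagcgcaCGGACTGATCTGtag

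Of these 9 ends, 3 encode the same 4 residues (Calr, P4hb and Pdia6), and no 2 of the 9 use the same 4 codons. A total of 6 share the last 2 residues of Calr, while Pdia3, Creld2 and Manf end differently. The last coding base of Calr lies on chromosome 8 at 84842650 (minus strand), that of P4hb on chromosome 11 at 120561186 (minus strand) and that of Manf on chromosome 9 at 106889044 (minus strand).

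The second set of sequences is the letters that the known transcription factors of the response read. The ER stress response element (ERSE) is CCAAT, 9 bases of any kind, and CCACG, and it is known to be bound by Atf6 and Xbp1 with NF-Y. RefSeq promoters (GRCm38.p6, 250 bases before to 50 after a gene's start) were found for 28 of the 34 members. There were none for Atf6, Derl1, Hyou1, Manf, Ppp1r15b and Ssr2. On either strand, 6 of the 28 members (21.4%) held an ERSE, against 0.119% of all 32851 promoters of the same length. The motif forms were chosen with these sequences in view, so the contrast is a description and no independent evidence. It also sets a share of genes beside a share of promoters. The 28 members had 29 promoters, and in 25 of these the first bases after the start lay in a transcript of the gene. The 6 matches are printed 5′ to 3′ on the strand of the motif, with the motif letters in capitals.
Calr: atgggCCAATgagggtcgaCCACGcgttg
Canx: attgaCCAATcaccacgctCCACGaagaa
Creld2: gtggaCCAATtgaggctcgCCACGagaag
Derl3: gctagCCAATggggaagtcCCACGgtaga
Pdia6: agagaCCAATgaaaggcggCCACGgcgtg
Syvn1: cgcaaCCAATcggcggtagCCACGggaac

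These windows lie upstream of the start, from 44 bases (Syvn1) to 162 bases (Calr) before it. That of Calr is chr8:84847070-84847098, that of Canx is chr11:50325795-50325823 and that of Syvn1 is chr19:6046527-6046555. The motif was on the opposite strand from the gene in Calr, Creld2 and Derl3. The 6 genes are not alike in level: Calr is the second highest of the 34 members and Derl3 is the lowest. In the library comparison below, Calr and Syvn1 are among the genes called and the other 4 are not.

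Each of the other motifs of the response was found in fewer of the 28 members than the ERSE. The element known as ERSE-II (ATTGG, 1 base, CCACG) was in the Herpud1 promoter alone of the 28, against 0.0365% of all promoters. The letters TGATGNAA, the core read by Atf4 with C/EBP partners, were in 4 of the 28 (14.3%) against 3.97% of all promoters. The letters TGACGTCA, the cyclic AMP response element, were in the Ppp1r15a promoter alone of the 28, against 1.79% of all. The letters TGACGTGG, read by Xbp1 and Atf6, were in none of the 28 and in 0.676% of all promoters. A match is a run of letters and was not tested as a binding site, and the motif forms were chosen with these sequences in view.
Herpud1 (ERSE-II): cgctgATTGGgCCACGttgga
Herpud1 (TGATGNAA): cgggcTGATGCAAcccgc
Asns (TGATGNAA): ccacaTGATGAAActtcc
Chac1 (TGATGNAA): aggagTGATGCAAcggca
Trib3 (TGATGNAA): ccggcTGATGTAAacctg
Ppp1r15a (TGACGTCA): tccggTGACGTCAgcaca

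The match in Trib3 lies just after the RefSeq start and the others before it. That of Asns is chr6:7693220-7693237, that of Chac1 is chr2:119351044-119351061 and that of Ppp1r15a is chr7:45526268-45526285. Asns, Chac1 and Trib3 are known targets of Atf4, and in these libraries they stood among the lower members while Atf4 itself stood highest. Herpud1, whose promoter also held these letters, was among the highest members with 63.2 and 100.2 TPM. The matches thus did not go with a low level as a group.

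The genes were expressed as a set well above the middle of the genome. Levels are the deposited TPM (a scale per transcript length, relative to the whole library) of the gene table, and 2 transcript tables, 1 in RSEM layout and 1 in kallisto layout, are used further on. In both libraries 33 of 34 members reached 1 TPM, and 28 of 34 reached 10 TPM. Their median was 28.65 TPM in replicate 1 and 33.4 TPM in replicate 2, or 31.0 ± 3.35 (SD, n = 2). The protein-coding genes listed above 0 TPM in at least 1 library numbered 14633, and among them the median member stood at percentile 85.0 in replicate 1 and 84.6 in replicate 2. Together the members held 1189 and 1587 TPM, which is 0.362% and 0.349% of the protein-coding TPM.

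The highest member was 333-fold above the lowest by mean TPM. The order from the top was Atf4, Calr, P4hb, Herpud1, Ppp1r15b, Ppp1r15a, Ddit3, Xbp1, Edem1, Pdia3 and Canx, and from the bottom Derl3, Trib3, Chac1, Atf6, Creld2 and Derl2. Of the 33 pairs of neighbours in this order, 7 had ranges over the 2 libraries that did not overlap. These were the steps below Atf4, Canx, Eif2ak3, Asns, Atf6, Chac1 and Trib3. The ranges of the other neighbours, such as Ppp1r15a, Ddit3, Xbp1 and Edem1, overlapped. Read within each library, 17 of the 33 pairs stood in the same order in both, among them Calr above P4hb, Pdia4 above Sec63 and Derl2 above Creld2. Across the 34 genes the log2 levels of the 2 libraries had a Pearson r of 0.992, as a description over genes that share both libraries.

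**Figure D1:**
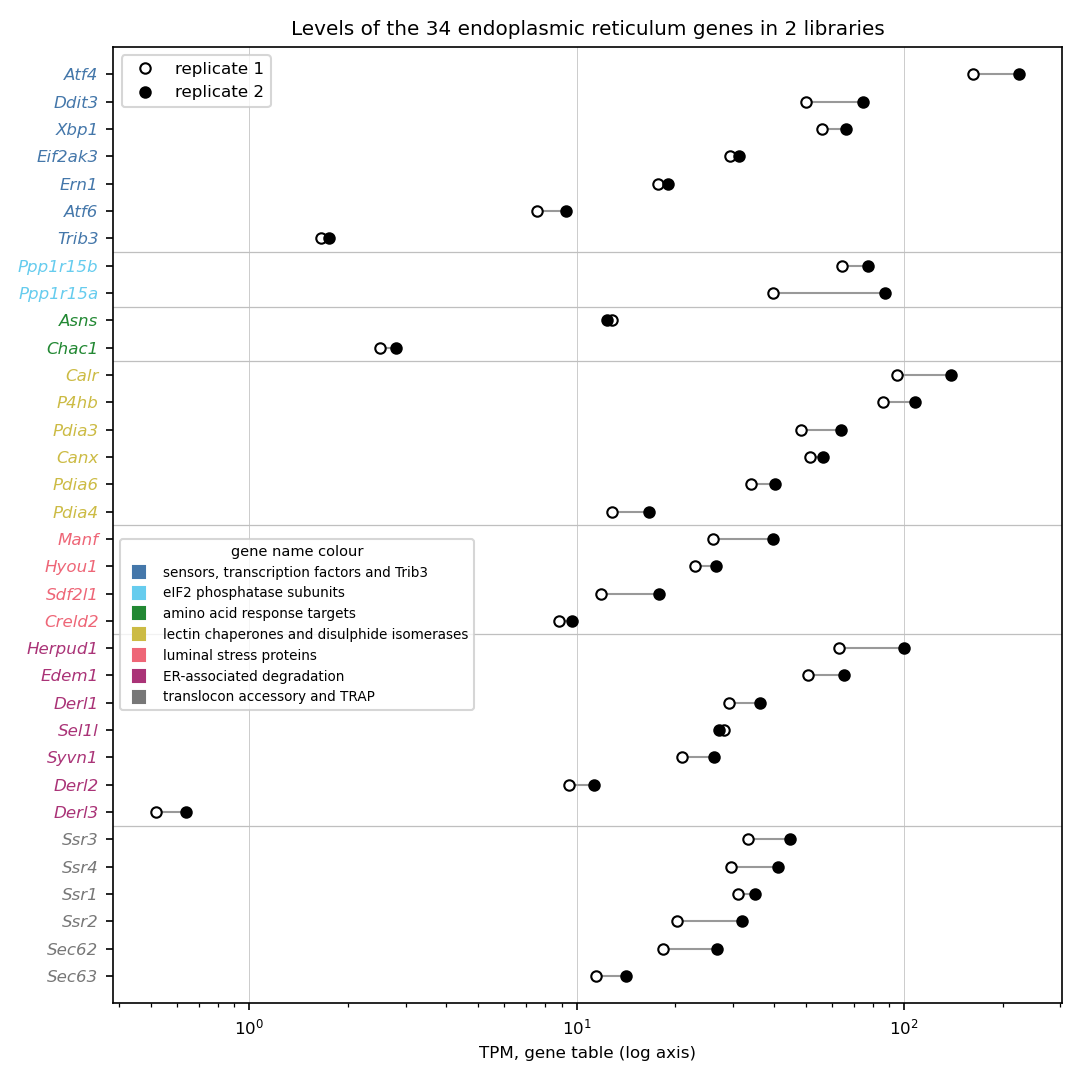
Level of each of the 34 genes in TPM on a log axis, with replicate 1 as open and replicate 2 as filled points joined by a line, grouped by role (colour of the gene name). Atf4 lies at the top with 162 and 224 TPM, Derl3 at the bottom with 0.52 and 0.64 TPM, and the filled point is to the right in all but Asns and Sel1l.

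TPM was higher in replicate 2 for 32 of the 34 members, the exceptions being Asns and Sel1l. This goes with the make-up of the libraries: 7SL, the RNA component of signal recognition particles, held 43.8% of all TPM in replicate 1 and 31.6% in replicate 2, and protein-coding genes took 32.8% and 45.4%. The median difference in log2(TPM + 0.1), replicate 2 less replicate 1, was 0.31 over the members and 0.23 over all genes tested. Total expected counts were 18387963 and 18090108. The libraries were therefore compared on counts, each gene with itself, after TMM scaling. In that scale 23 members had a ratio above 0 and 11 below 0. The median log2 ratio was 0.09 over the members and 0.00 over all genes tested, whose quartiles were -0.24 and 0.25. The share of all genes above 0 was not counted. The comparison is an exact binomial test of the 2 libraries for counting error, adjusted over the 15118 genes tested, and it says nothing about conditions.

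The sensors were expressed at unequal levels. Ern1, the kinase and RNase that splices Xbp1, stood at 17.7 and 19.0 TPM in replicates 1 and 2. Eif2ak3, the kinase that phosphorylates eIF2α, stood at 29.35 and 31.4 TPM. Atf6, the membrane-bound transcription factor, was the lowest sensor with 7.56 and 9.26 TPM. The order Eif2ak3, Ern1, Atf6 was the same in both libraries. On the log2(TPM + 0.1) scale Eif2ak3 was above Ern1 by 0.72 ± 0.01 (SD of 2 libraries) and Ern1 above Atf6 by 1.12 ± 0.13, so both steps were larger than the spread.

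The transcription factors downstream were the more abundant part of the signalling branch. Atf4 (chromosome 15, 80255184 to 80257541) was the highest of all 34 genes with 162 and 224 TPM. Xbp1 (chromosome 11, 5520659 to 5525893) stood at 56.0 and 66.3 TPM, or 1.73 ± 0.10 log2 units above Ern1. Ddit3 (CHOP), a factor tied to cell death under lasting stress, stood at 50 and 74.95 TPM and 1.64 ± 0.08 log2 units below Atf4. Trib3, a pseudokinase target of Atf4 and Ddit3, stood at only 1.65 and 1.75 TPM, from 63 and 48 counts. High factors and a low Trib3 were seen in both libraries.

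Of these 7 genes, Atf4 and Ddit3 differed between the libraries. Atf4 had 5887 and 6866 counts, a log2 ratio of 0.20 (95% counting interval 0.15 to 0.25, exact binomial test, adjusted p = 3.31e-14). Ddit3 had 874 and 1110 counts, a ratio of 0.33 (0.20 to 0.46, exact binomial test, adjusted p = 4.78e-06). With scaling by length class, described below, Ddit3 had a ratio of 0.10 and no longer passed. The other 5 did not pass the threshold, with ratios from -0.41 (Trib3) to 0.12 (Ern1). Ddit3 overlaps Mars on the opposite strand, which stood at 13.3 and 16.2 TPM, and whether counting used the strand is not given in the sources used here.

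The eIF2α phosphatase subunits gave the largest difference between the libraries. Ppp1r15a (GADD34, the inducible subunit, chromosome 7, 45522916 to 45526268) stood at 39.85 TPM in replicate 1 and 87.6 TPM in replicate 2, from 1177 and 2283 counts. Ppp1r15b, the constitutive subunit, stood at 64.6 and 77.45 TPM, from 7430 and 7664 counts. Ppp1r15a was the lower of the 2 genes in replicate 1 and the higher in replicate 2. Its difference from Ppp1r15b was -0.69 and 0.18 log2 units, a mean of -0.26 ± 0.62, so the order of these subunits was not settled by these libraries.

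The count ratio of Ppp1r15a was 0.94 (95% counting interval 0.84 to 1.04, exact binomial test, adjusted p = 3.61e-75), or 1.92-fold. It exceeded the ratio of 98.4% of the 9421 protein-coding genes that had 100 counts or more in total. The ratio of Ppp1r15b was 0.03 (-0.02 to 0.07, exact binomial test, adjusted p = 0.423). Only Ppp1r15a, of the 33 members with at least 100 counts, lay outside the central 95% of those genes, which runs from -0.49 to 0.77.

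Asns and Chac1, targets of the amino acid response through Atf4, were low to moderate. Asns (asparagine synthetase) stood at 12.8 and 12.3 TPM. Chac1, which degrades glutathione, stood at 2.51 and 2.80 TPM, from 84 and 80 counts. Neither differed between the libraries beyond counting error, with ratios of -0.10 and -0.09. Asns was above Chac1 by 2.20 ± 0.15 log2 units.

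The lectin chaperones and disulphide isomerases were the highest group after the phosphatase subunits, with a median of 50.1 and 60.4 TPM over 6 genes. Calr (calreticulin, the soluble lectin chaperone, chromosome 8, 84841850 to 84846934) stood at 95.3 and 139 TPM. Canx (calnexin, its membrane-bound counterpart) stood at 51.7 and 56.7 TPM. Calr was above Canx in both libraries, by 1.09 ± 0.29 log2 units. P4hb (PDI, the principal isomerase) stood at 86.2 and 108 TPM. Pdia3 (ERp57, the isomerase that works with both lectins) stood at 48.5 and 64.1 TPM. Pdia6 followed with 33.99 and 40.4 TPM and Pdia4 with 12.8 and 16.6 TPM. The order P4hb, Pdia3, Pdia6, Pdia4 was the same in both libraries, and P4hb was 6.59-fold above Pdia4 (2.72 ± 0.04 log2 units).

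Calr and Pdia3 were the 2 of these 6 that differed between the libraries. Calr had 3466 and 4513 counts and a ratio of 0.36 (0.30 to 0.43, exact binomial test, adjusted p = 1.93e-27). Pdia3 had a ratio of 0.16 (0.08 to 0.24, exact binomial test, adjusted p = 0.000508). P4hb had 3365 and 3367 counts, and its ratio of -0.02 (-0.09 to 0.05) stands beside a higher TPM in replicate 2. Canx, Pdia4 and Pdia6 had ratios from 0.01 to 0.14 and did not pass.

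The luminal stress proteins were lower, with a median of 17.4 and 22.3 TPM over 4 genes. Manf, a small secreted and ER-resident protective protein, stood at 26.1 and 39.6 TPM. Hyou1 (GRP170), a large Hsp70-like chaperone and exchange factor, stood at 23.0 and 26.7 TPM. Both were above Sdf2l1, which stood at 11.9 and 17.8 TPM, and Creld2, which stood at 8.80 and 9.70 TPM. Sdf2l1 acts with the Hspa5 chaperone cycle, and Creld2 is an isomerase-like stress protein. Manf was above Creld2 by 1.79 ± 0.33 log2 units and Hyou1 above Sdf2l1 by 0.76 ± 0.26.

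Between the libraries Sdf2l1 had a ratio of 0.34 (0.10 to 0.58, exact binomial test, adjusted p = 0.0176) and Manf one of 0.22 (0.04 to 0.39, exact binomial test, adjusted p = 0.0475). Hyou1 and Creld2 had ratios of -0.09 and -0.11 and did not pass. Manf no longer passed when the minimum was set at 1 count or at 50 counts, and neither Sdf2l1 nor Manf passed with scaling by length class. Exons of Manf overlap Rbm15b on the same strand and Dcaf1 on the opposite strand, and Rbm15b had 695 and 686 counts of its own.

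The genes of ER-associated degradation (ERAD) ran from among the highest members to the lowest. Herpud1, a scaffold of the ubiquitin ligase complex and a fast target of the response, stood at 63.2 and 100.2 TPM. Edem1, a mannosidase-like lectin that extracts misfolded glycoproteins, stood at 50.9 and 65.4 TPM. Sel1l and Syvn1 (HRD1), the adaptor and the ubiquitin ligase of the central complex, were at like levels. Sel1l stood at 28.2 and 27.2 TPM and Syvn1 at 21 and 26.3 TPM, a difference of 0.24 ± 0.26 log2 units that did not exceed its spread. The derlins, membrane channels of ERAD, were far apart. Derl1 stood at 29.1 and 36.2 TPM, Derl2 at 9.45 and 11.3 TPM and Derl3 at 0.52 and 0.64 TPM. Derl1 was above Derl2 by 1.64 ± 0.04 log2 units. Derl2 was above Derl3 by 3.95 log2 units, a size that is uncertain because Derl3 had 7 and 13 counts. The kallisto-layout table gave 3.56 and 4.14 in replicates 1 and 2. Adding 1 in place of 0.1 to the gene table's TPM gave 2.85.

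Derl3 rests on 7 and 13 counts, and its ratio of 0.83 has a counting interval from -0.56 to 2.44, so no difference between the libraries was detectable at this depth. Derl1 was the only member without whole counts, with 1953 and 2024, as arises where reads are split between entries. Herpud1 had 1990 and 2527 counts and a ratio of 0.33 (0.24 to 0.41, exact binomial test, adjusted p = 6.82e-13). Syvn1 had a ratio of 0.14 (0.04 to 0.25, exact binomial test, adjusted p = 0.0274), and its exons overlap Mrpl49 on the opposite strand. Sel1l, Edem1, Derl1 and Derl2 had ratios from -0.10 to 0.03 and did not pass.

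The translocon accessory genes included the translocon-associated protein (TRAP) complex, whose 4 subunits are encoded by Ssr1 to Ssr4 and assist insertion of secretory proteins. Ssr3 stood at 33.4 and 44.7 TPM, Ssr4 at 29.5 and 41.25 TPM, Ssr1 at 31.1 and 34.9 TPM and Ssr2 at 20.2 and 31.9 TPM. The subunits thus lay within 1.52-fold of each other by mean log2 level (Ssr3 over Ssr2, 0.60 ± 0.17 log2 units). Sec62 and Sec63, which drive import after translation and recruit Hspa5, stood at 18.3 and 26.9 TPM and at 11.4 and 14.1 TPM. Sec62 was above Sec63 by 0.80 ± 0.17 log2 units.

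In this group 4 of 6 genes were higher in replicate 2, as were 16.9% of all genes tested. Ssr2 had the highest ratio, 0.44 (0.26 to 0.63, exact binomial test, adjusted p = 1.75e-05), from 406 and 559 counts. Ssr3 had a ratio of 0.21 (exact binomial test, adjusted p = 2.4e-05), Ssr4 one of 0.22 (exact binomial test, adjusted p = 0.0432) and Sec62 one of 0.15 (exact binomial test, adjusted p = 0.0371). Ssr1 and Sec63 had ratios of -0.04 and -0.06 and did not pass. Whether the TRAP subunits differed from each other in ratio was not tested. Ssr1 has the longest effective length of the 4, and with the scaling by length class described below Ssr2 and Ssr4 no longer passed.

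Over all roles, 27 pairs of genes of 1 complex, branch or family were compared within each library. The difference exceeded its spread in 24 of the 27. The 3 exceptions were Ssr4 with Ssr1, Ppp1r15a with Ppp1r15b, and Sel1l with Syvn1. This count is a description and not a test. The spread is the SD of 2 values, and the pairs were chosen with earlier results known. No pairs of other genes were counted beside them. With log2 levels so alike between the libraries (Pearson r of 0.992 over the members), genes of unlike level pass readily. The choice of quantifier mattered for the TRAP subunits: Ssr3 was above Ssr1 by 0.23 ± 0.18 with the gene table and below it, at -0.20, with the kallisto-layout table. In 22 of the 27 pairs that table gave the same sign in both libraries.

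In all, 13 of the 34 members passed the library comparison and 21 did not. All 13 were higher in replicate 2 and 0 were higher in replicate 1. Over all 15118 genes tested 32.1% passed, 16.9% as higher in replicate 2 and 15.1% as higher in replicate 1. Among protein-coding genes with at least 100 counts, where calls come more easily, 38.2% passed, against 39.4% of the 33 members with such counts. The share of members called in either direction was thus near the background. In the direction of replicate 2 alone those genes had 22.2%, against the same 39.4% of the members, a difference that was not tested. The median ratio of the members was 0.09, against 0.02 for those protein-coding genes, whose quartiles were -0.14 and 0.21, and 23 of the 33 members lay between these quartiles.

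**Figure D2:**
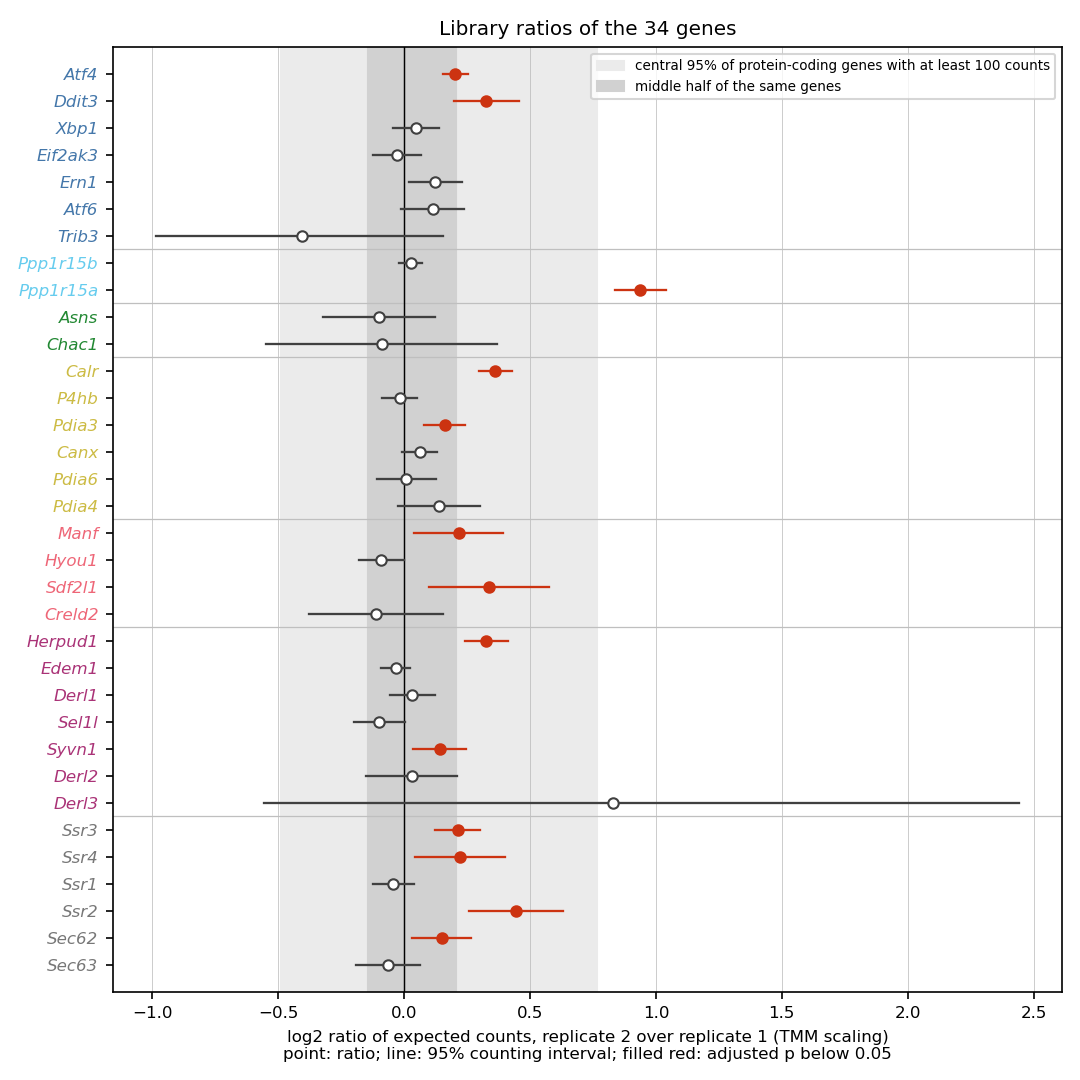
Log2 ratio of counts, replicate 2 over replicate 1, for each of the 34 genes with its 95% counting interval; red filled points passed the exact binomial test after adjustment. Dark and light grey bands hold the range between the quartiles and the central 95% of the 9421 protein-coding genes with at least 100 counts; Ppp1r15a lies to the right of both at 0.94, and the wide interval belongs to Derl3.

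The test counts sampling of reads as the only error. With the spread between libraries that edgeR estimated from all genes (a coefficient of variation of 0.187), edgeR's exact test called 1.24% of all genes and 0 of the 34 members. That spread was taken from these same 2 libraries, treated as replicates. A gene whose ratio was of ordinary size could therefore not pass, and the lack of calls does not show that the members were equal. By that test only 1 member had an unadjusted p under 0.05, where the binomial test had 14. The 1 member was Ppp1r15a (edgeR exact test, adjusted p = 0.428), higher in replicate 2.

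Scaling decides how much of the change is counted as general. Scaled to the ERCC spike-in total instead of TMM, the median of all genes moved from 0.00 to 0.74, and 98.4% of calls were higher in replicate 2 against 52.8% with TMM. In that scaling 33 of the 34 members were called higher in replicate 2, Trib3 being the exception. Over all 15118 genes, 75.1% were called in that scaling. It raises every ratio by nearly the same amount, so the members' median of 0.83 is to be read beside the 0.74 of all genes.

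Gene length moved with the ratio. Protein-coding genes with an effective length under 1 kb had a median ratio of 0.23, and 42.6% of them were called higher in replicate 2. The median was 0.05 at 1 to 2 kb, 0.00 at 2 to 3 kb and -0.04 above 3 kb, where 15.4% were called higher in replicate 2. The 4 members under 1 kb with enough counts, Ddit3, Manf, Ssr2 and Ssr4, were all among the 13. The 13 called members had a median effective length of 1400 nt, against 2917 nt for the 20 others with at least 100 counts. Scaled by the median ratio of genes of like length, a setting chosen after this was seen, 12 members were called and 8 of the 13 stayed among them. Those 8 were Atf4, Calr, Herpud1, Pdia3, Ppp1r15a, Sec62, Ssr3 and Syvn1, while Atf6, Canx, Ern1 and Ppp1r15b joined them. Manf and Ssr4 then had ratios of -0.0098 and -0.0051. Ddit3 had a ratio of 0.10 in that scaling (exact binomial test, adjusted p = 0.254), Ssr2 one of 0.22 (exact binomial test, adjusted p = 0.0648) and Sdf2l1 one of 0.28 (exact binomial test, adjusted p = 0.0543), so these 3 also lost their calls. Ppp1r15a stayed at 0.88 and Calr at 0.31.

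**Figure D3:**
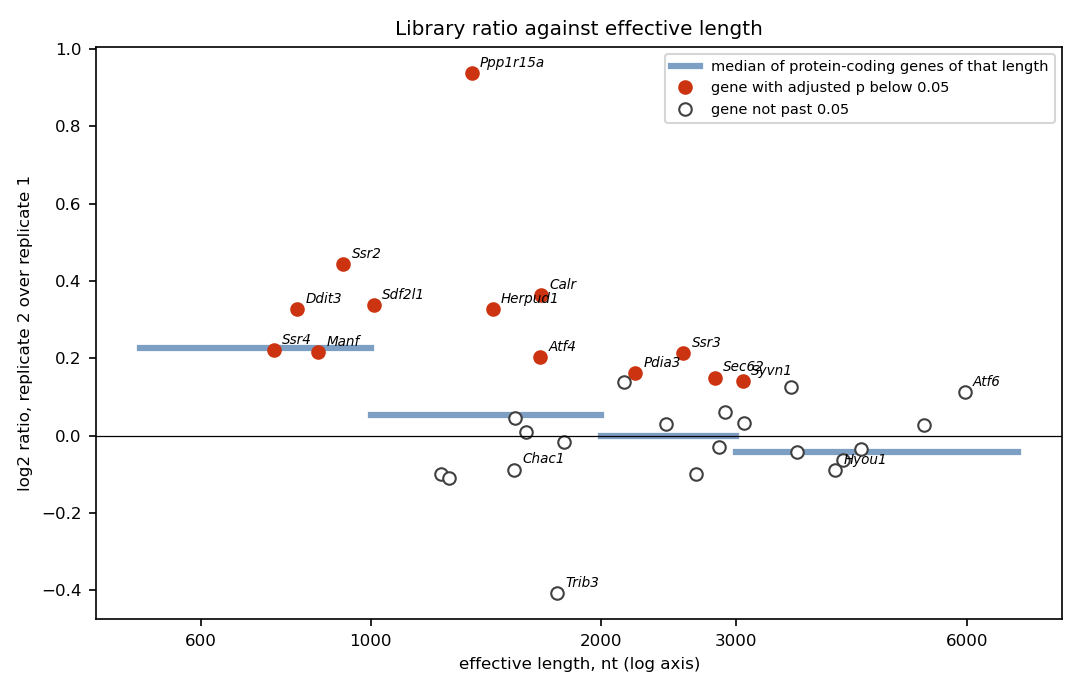
Log2 ratio, replicate 2 over replicate 1, of the 33 members with at least 100 counts against effective length in nt on a log axis; red filled points passed the exact binomial test, open points did not. Blue bars are the medians of protein-coding genes in 4 classes of length, falling from 0.23 under 1 kb to -0.04 above 3 kb; Ssr4 and Manf lie on the bar of their class and Ppp1r15a far above its own.

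Markers of the cells present bear on how these levels are read, since in bulk RNA fewer cells of a type and less RNA per cell cannot be told apart. The 8 markers of mature neutrophils were all present, from 144 to 20494 TPM by mean. Precursor markers such as Ngp and Mpo were also high (9 of 9 above 10 TPM), and 6 of 9 were called higher in replicate 2, as were 2 of 2 cell cycle markers. All such counts stand beside 16.9% of all genes tested that were called higher in replicate 2. Among protein-coding genes under 1 kb with at least 100 counts the share was 42.6%. Markers of under 1 kb include S100a8, S100a9, Retnlg, Hbb-bs and Igkc. Plasma cells, which are rich in ER proteins, had 6 of 10 markers at 1 TPM or more in both libraries, and Tnfrsf17 at 0 in both. The summed level of that list was 174 and 373 TPM, of which Igha and Igkc held most, and 8 of its 9 tested genes were called higher in replicate 2. One of the list, Txndc5, is also an ER folding gene. B cell markers summed to 6.11 and 21.1 TPM with 5 of 6 called higher in replicate 2, and erythroid markers to 44.1 and 113 TPM with 4 of 4. Monocyte and macrophage markers summed to 108 and 145 TPM with 2 of 4 tested called higher in replicate 2. T cell markers summed to 0.58 and 1.88 TPM with 1 of 2 tested called higher in replicate 2. The mature neutrophil list itself summed to 26946 and 58698 TPM, with 7 of 8 genes called higher in replicate 2 and Il1r2 higher in replicate 1. By edgeR's exact test 4 B cell markers and 2 plasma cell markers were called, where 0 members were. These calls, Il1r2 apart, went in the same direction as those of the 13 members, and their part in the members' ratios was not tested.

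Other genes of the pathway, 56 in number, were taken from a list of names. They had a median of 13.0 and 16.4 TPM, and 54 of them reached 1 TPM in both libraries. The highest by mean was Hspa5 (BiP, the central Hsp70 of the ER), with 200.4 and 340.05 TPM, above every one of the 34 members in both libraries. Tmbim6, an ER membrane protein that limits cell death, stood at 210 and 280 TPM, and Cebpb, a leucine zipper factor of myeloid cells, at 205 and 261 TPM. Atf3, a stress-induced factor downstream of Atf4, stood at 94.0 and 186 TPM. Hsp90b1 (GRP94, the ER Hsp90) stood at 87.25 and 111.6 TPM. The Sec61 channel had Sec61a1 at 62.8 and 79.8 TPM, Sec61b at 40.3 and 60.2 TPM and Sec61g at 2.15 and 2.64 TPM. In the kallisto-layout table Sec61g stood far higher, at 19.9 and 57.6 TPM, so its level was not settled. That table had Sec61a1 at 72.8 and 80.4 TPM and Sec61b at 50.3 and 75.8 TPM.

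In the library comparison 17 of the 56 were called, 11 as higher in replicate 2 and 6 as higher in replicate 1, while 39 were not, beside the 32.1% called over all genes. Atf3 had the largest ratio of those called, 0.74 (exact binomial test, adjusted p = 9.47e-142), followed by Dnajb9 at 0.57, a co-chaperone of Hspa5. Hspa5 itself had a ratio of 0.51 from 9188 and 13295 counts (exact binomial test, adjusted p = 1.17e-152). In the other direction Map3k5 (ASK1), a kinase downstream of Ern1, had a ratio of -0.57 from 4657 and 3166 counts (exact binomial test, adjusted p = 2.97e-66). Dnajb9 and Map3k5 were named after their values were seen. This list had calls in both directions.

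The gene table and the gene sums of the kallisto-layout table gave like levels for the 34 members. In none of the 34 members did they differ over 2-fold in both libraries, whereas 13.2% of the 13328 genes compared did. None differed over 1.5-fold either. Over 1.3-fold only Derl1 did, at 1.37-fold and 1.38-fold higher in the kallisto-layout table.

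Transcripts were read from the kallisto-layout table, with the RSEM-layout table beside it. In 26 of the 34 members the same transcript led in both libraries and both tables, and all 26 leading transcripts were protein-coding. Chac1, Creld2 and Sdf2l1 have a single annotated transcript. The median member had 77.4% and 77.6% of its TPM in protein-coding transcripts, against 72.1% and 75.1% for protein-coding genes of at least 1 TPM. The median share in transcripts annotated as retaining an intron was 13.8% and 15.6% in the members and 8.93% and 7.36% in those genes, and 16.8% and 17.1% against 8.71% and 7.14% with the RSEM-layout table. The means lay closer, at 18.2% and 15.5% in the members and 16.9% and 15.6% in those genes. The difference was not tested.

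**Figure D4:**
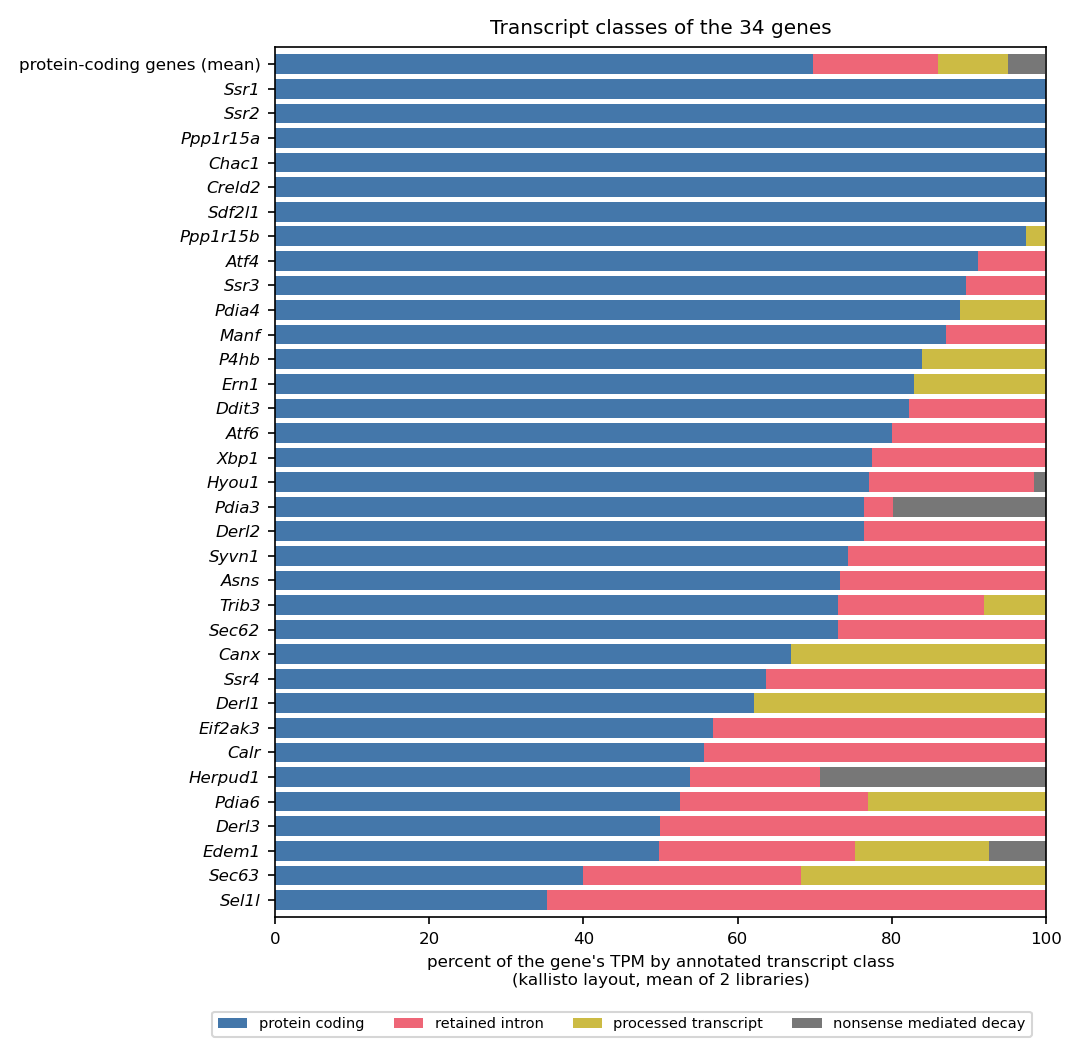
Percent of each gene's TPM in transcripts of each annotated class, as the mean of 2 libraries in the kallisto-layout table, sorted by the protein-coding share; the top bar is the mean over protein-coding genes of at least 1 TPM. Ppp1r15a, Ssr1 and Ssr2 are fully protein-coding because all their annotated transcripts are. Sel1l has the lowest protein-coding share at 35.3%, and the bar of Derl3 rests on 7 and 13 counts.

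Xbp1 is the member whose transcripts carry the signal of the Ern1 branch. Xbp1-201 held 54.0% and 59.7% of the gene's TPM, the retained-intron transcript Xbp1-202 held 25% and 20.1%, Xbp1-204 held 11.4% and 10.8% and Xbp1-203 held 9.65% and 9.36%. Ern1 removes a short segment from this messenger RNA outside the nuclear splicing machinery. The shortest intron in the 4 annotated Xbp1 transcripts is 300 nt, so none of them stands for that form. The spliced and unspliced forms therefore cannot be told apart in these tables.

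Retained-intron transcripts held a large part of the TPM of some other members. In such shares a short transcript weighs more than it does by counts. Sel1l had 70.2% and 59.2% of its TPM in them, spread over 6 transcripts, and its leading protein-coding transcript Sel1l-201 held 17.2% and 26.8%. By estimated counts Sel1l-206 (617 nt, 19.6% and 11.6% of TPM) had 60.8 and 25.9, beside 833 and 991 for Sel1l-201 (6300 nt). Calr had 49.1% and 39.7% of its TPM in retained-intron transcripts, mostly as Calr-204 with 34.3% and 27.5%, beside Calr-201 with 50.9% and 60.3%. Calr-204 (943 nt) had 705 and 631 estimated counts, beside 2859 and 3861 for Calr-201 (2184 nt). Eif2ak3 had 41.9% and 44.6% of its TPM in retained-intron transcripts, and Ssr4 had 39.1% and 33.5%. In the RSEM-layout table the shares were lower for Calr (31.9% and 26.2%) and higher for Ssr4 (51.0% and 42.5%). They were lower for Sel1l (56.4% and 44.5%) and for Eif2ak3 (37.9% and 29.7%). In 17 members at least 10% lay in such transcripts in both libraries and both tables, and in 6 members at least 90% was protein-coding in all 4 values. These 6 were Chac1, Creld2, Sdf2l1, Ppp1r15a, Ssr1 and Ssr2. All their annotated transcripts are protein-coding, so the annotation fixed their share.

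The retained-intron share was higher in replicate 1 in 15 of the 22 members that have such a transcript and in 7 it was higher in replicate 2. Among all protein-coding genes with such a share it was higher in replicate 1 in 62.7%, so the members' 68.2% was near the rest. With the RSEM-layout table the members' count was 13 against 9, or 59.1% higher in replicate 1. The share among all protein-coding genes was 65.0% in that table.

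The leading protein-coding transcript was well defined for several stress genes. Atf4-201 held 83.0% and 89.7% of Atf4, Ddit3-201 held 80.4% and 83.9% of Ddit3, and Ppp1r15b-201 held 97.1% and 97.8% of Ppp1r15b. Ppp1r15a was split in both libraries between Ppp1r15a-201, with 60.5% and 63.9%, and the short Ppp1r15a-203, with 34.3% and 34.4%. Both were higher in replicate 2, at 18.1 and 46.7 TPM for Ppp1r15a-201 and 10.2 and 25.2 TPM for Ppp1r15a-203. The share of Ppp1r15a-203 (389 nt) rests on 47.3 and 84.8 estimated counts, beside 1081 and 2188 for Ppp1r15a-201 (2333 nt). Herpud1-205 held 47.5% and 52.0% of Herpud1, while Herpud1-202, annotated as a target of nonsense-mediated decay, held 31.7% and 27.0% in this table and 0% and 1.60% in the RSEM-layout table.

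For other members the split between transcripts could not be read. Asns was led by Asns-201 in replicate 1 (51.9%) and by Asns-202 in replicate 2 (74.6%), and the RSEM-layout table had the opposite order. Hyou1 was led by Hyou1-201 in replicate 1 (40.9%) and by Hyou1-206 in replicate 2 (56.5%), where the RSEM-layout table had Hyou1-201 in both. These pairs of transcripts are of nearly equal length, at 2001 and 2016 nt for Asns and 4432 and 4489 nt for Hyou1. For Derl3, the lead changed between a retained-intron and a protein-coding transcript on 7 and 13 counts.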

How the data were processed

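Total RNA-seq of 2 libraries of 1 group was used. The authors deposited, per the files' accompanying notes, a gene table and a transcript table from transcriptome alignments (RSEM column layout: expected counts, TPM, FPKM and, for transcripts, percent of the gene) and a second transcript table made from the reads (kallisto layout: estimated counts and TPM), all with mm10 and GENCODE M21. The sources used here name neither the programs nor their versions, nor the aligner. The deposited TPM is relative to all entries, noncoding and spike-in RNA included. The deposited FPKM and percent values served as alternatives or checks only.

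The members, the lists and the pairs were chosen with earlier results of these data known. All 34 members are named. Of the other pathway genes the 5 highest are named, with the Sec61 genes, Hspa5, Hsp90b1 and those called and at least 1.5-fold apart. Map3k5 and Dnajb9 were added outside this rule.

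Expected counts were rounded, scaled by TMM (edgeR 4.0.16, R 4.3.3) and compared by an exact two-sided binomial test in SciPy 1.17.1. Genes with at least 10 counts together were tested, with Benjamini-Hochberg adjustment at 0.05. With 1 library a side no quasi-likelihood fit exists. The log2 ratio divides replicate 2 by replicate 1 after adding 0.5. Counting intervals are exact (Clopper-Pearson, 95%) and cover counting error only. Differences between genes use log2(TPM + 0.1). A count on a gene of 1 kb is worth 0.0458 and 0.0538 TPM (replicates 1 and 2). The comparison was tested on simulated data that held counting error alone, as the test itself assumes. That check therefore says nothing about further spread between the libraries. Exons of 13 members overlap another annotated gene, in 12 of them on the opposite strand. The alternatives were other scalings (DESeq2 1.42.0 size factors, totals, spike-ins), filters, tests, units and quantifiers.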

Additional observations from a re-analysis of the deposited data

How the results depend on the processing

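The count of 33 members at 1 TPM or more was 34 at 0.5 TPM and 32 at 2 TPM, and 33 with either library alone. The median level of 31.0 TPM was 80.4 on a scale of protein-coding TPM alone (87.3 in replicate 1 and 73.5 in replicate 2, the opposite order), 32.8 with kallisto and 28.65 to 33.4 with either library alone. The median percentile of 84.8 was 89.9 without a filter and 77.3 among genes of at least 1 TPM. The 13 members called were 13 with DESeq2 size factors, 16 with total counts, 33 with the spike-in total, 11 without a count filter, 12 from 50 counts, 20 with kallisto counts, 12 with scaling by length class and 0 with edgeR's exact test; each call was higher in replicate 2. Without a filter the lost calls were Manf and Ssr4. The median ratio of 0.09 was 0.13 with total counts, 0.83 with the spike-in total, 0.15 with kallisto counts, 0.0728 by length class, 0.31 as log2(TPM + 0.1) and 0.30 as log2(TPM + 1). The median protein-coding transcript share of 77.5% was 78.9% in the RSEM table. Of called ratios, signs turned for Manf (-0.0098) and Ssr4 (-0.0051) by length class; counting uncalled ones, 5 turned by length class, 5 with kallisto counts (Edem1 at 0.08 then called), 3 with total counts and 11 with the spike-in total. Ssr3 less Ssr1 (-0.20) and Ssr4 less Ssr1 (-0.25) turned with kallisto. Searching the gene strand alone left 3 of 6 ERSE and 1 of 4 TGATGNAA matches. The cause of these changes was not tested. With 1 library a side, the library comparison allows none left out. Derl3, Trib3 and Chac1 are limited by depth. No paired analysis was possible because there is 1 group.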

Other observations

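The share of TPM in a short transcript can rest on few counts. In Ssr1 the transcript Ssr1-202, 523 nt long, led by TPM in the kallisto table with 56.3% and 59.1% of the gene, from 178 and 175 estimated counts. The longer Ssr1-201, of 9333 nt, had 2404 and 2260 estimated counts and 24.8% and 22.8% of the TPM. In the RSEM table Ssr1-202 held 23.2% and 20.2%, and the lead passed to Ssr1-204 in replicate 1 and Ssr1-201 in replicate 2. Ssr1 also differed between the tables as a gene, by 1.20-fold and 1.39-fold. Edem1 showed the same feature: Edem1-203 (368 nt) held 12.7% and 22.1% of its TPM on 24.8 and 57.1 estimated counts, beside 4334 and 4606 for Edem1-201. The sign of Ssr3 less Ssr1 turned between the same tables.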
